A study of Arabidopsis thaliana with 12 samples.

Results

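Arabidopsis seedlings of the wildtype were compared after 20 mM hydrogen peroxide (H2O2) for 1 hour and without treatment. Of the 12 arrays of the study, 6 entered this comparison: 3 arrays of wildtype seedlings given H2O2 and 3 arrays of untreated wildtype seedlings, chosen by their labels. All seedlings were 5 days old, of the Columbia background, and had grown in liquid culture medium. The 6 arrays left were of a line that expresses the zinc finger protein Zat12 under the constitutive 35S promoter of cauliflower mosaic virus in the same background, 3 with the same H2O2 treatment and 3 without. They share the estimate of the spread and serve below as a second measurement of the response. Zat12 itself has no named probe set here, so its level could not be followed by name, and an unnamed probe set may measure it. Whole seedlings were sampled, so fewer cells of a type and less of an RNA per cell cannot be told apart.

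Hydrogen peroxide is made in plastids, mitochondria, peroxisomes and at the plasma membrane, and is removed by catalases, peroxidases and the ascorbate and glutathione cycles. At moderate levels it acts as a signal that oxidises cysteines of sensor proteins, opens calcium channels and activates kinase cascades and transcription factors. In seedlings it is known to raise genes of protein folding, detoxification and defence, overlapping with the responses to heat, wounding and pathogens.

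Each array of the ATH1 type gave a linear MAS5 signal for 22746 probe sets besides 64 controls. Signals were tested on the scale of log2(signal + 3), and all log2 changes below are H2O2 minus untreated on that scale, with their standard error (SE) from limma. It understates changes at low signal, and values of genes that are near 0 without treatment have no order among themselves. A probe set was tested if its mean was above a signal of 28.1, and it was called risen or fallen at a limma adjusted p below 0.05 over the 13647 tested. The labels do not say whether the 3 arrays of a group came from separate cultures, so p-values measure the spread between arrays, which may be technical. Correlations of log2 signals over the tested probe sets were 0.975 to 0.982 among treated arrays, 0.966 to 0.981 among untreated ones, and 0.887 to 0.923 between the groups.

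Rises after H2O2 were larger than drops, while which of the 2 was the more frequent depended on the setting. Of the 13647 probe sets tested, 1309 (9.59%) rose and 1689 (12.4%) fell, with a median log2 change of 0.93 among the risen, -0.55 among the fallen and -0.07 over all. At least 2-fold, 608 (4.46%) rose and 110 (0.806%) fell. At least 4-fold, 200 (1.47%) rose and 7 (0.0513%) fell, and at least 16-fold 24 rose and 0 fell. The order of the counts turned without treated replicate 1, when 1084 rose and 1074 fell, and without untreated replicate 1, when 1195 rose and 1178 fell. It turned as well at an adjusted p below 0.01, with 989 risen and 772 fallen, and with each array's 25S ribosomal RNA control as a covariate, with 860 risen and 802 fallen. With no filter on low signals 1324 (5.82%) of 22746 rose. Drops of at least 2-fold numbered 212 with no filter and 63 with a stricter one. The groups of arrays did not overlap in 2909 of the 2998 called probe sets, beside 37.3% of all tested probe sets. Of the 7300 tested probe sets with exactly 1 named nuclear gene, 608 rose and 863 fell, and 87 rose at least 4-fold. Probe sets without a gene name in the annotation used here held another 628 of the rises and 95 of those of at least 4-fold, so the named genes below are a part of the response.

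**Figure D1:**
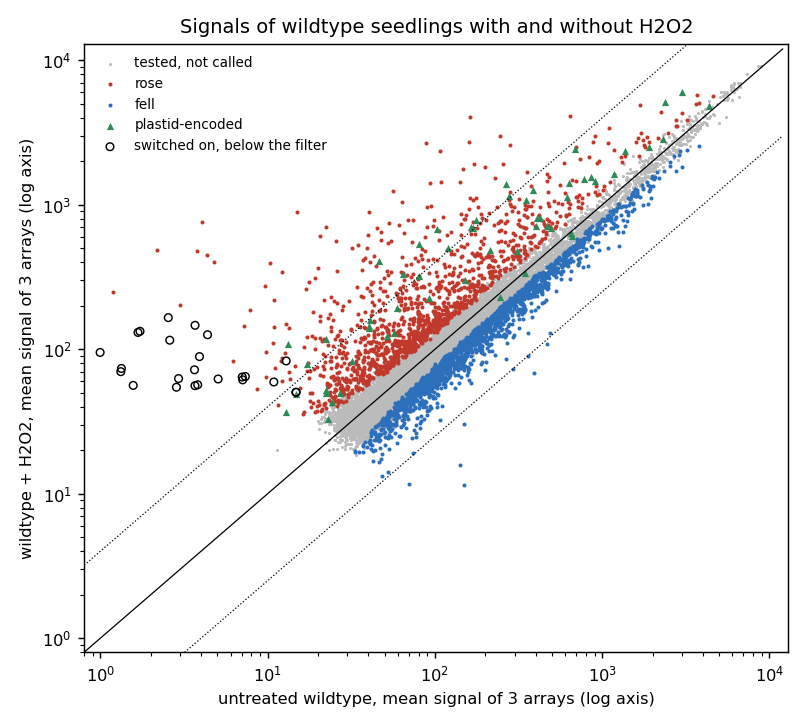
Mean MAS5 signal of the 3 arrays of wildtype seedlings given H2O2 (vertical, log axis) against that of the 3 untreated arrays (horizontal, log axis), 1 point per probe set; the solid line marks equal signals and the dotted lines 4-fold differences. On the log2(signal + 3) scale 200 of the risen probe sets, plastid-encoded ones included, rose at least 4-fold, against 7 of the fallen. The dotted lines use the mean signals themselves, so the points beyond them need not match these counts. The 24 circles are probe sets switched on from signals below the filter.

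The share of probe sets called depended on the signal. Of the 3253 tested probe sets with a mean signal below 50, 3.78% rose and 4.33% fell, while of the 667 between 500 and 1000, 16.6% rose and 20.8% fell. Drops of at least 2-fold were not more frequent among bright transcripts, with 0.799% below a signal of 50, 0.872% between 200 and 500 and 0 of 598 above 1000. Rises of at least 2-fold made up 1.75% of the dimmest class, 9.90% of those between 500 and 1000 and 5.69% of those above 1000. In that brightest class 11.7% rose and 11.9% fell at any size of change.

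A set of transcripts was near the floor of the array without treatment and well above it after 1 hour of H2O2. Switched on was taken to mean below the 30th percentile of the array on all 3 untreated arrays (signals of 17.8 to 20.1) and above the median on all 3 treated arrays (41.0 to 43.1). This held for 52 probe sets, 0.954% of the 5453 that were low without treatment, and the reverse for 1, 0.0184% of the 5444 that were low with H2O2. The definition uses the values, so the counts are a description, and with the low side at the 20th or the 40th percentile 27 or 104 probe sets were switched on. Mean signals of the 52 lay between 50.4 and 756.9 after H2O2 and between 1.00 and 17.5 without. Of the 52, 27 had exactly 1 named nuclear gene, and 24 lay below the filter on low values and were therefore not among the tested probe sets.

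The brightest of the switched-on transcripts, probe set 247949_at, has no gene name in the annotation used here. Its signals were 857, 794 and 620.1 after H2O2, against 7.91, 2.71 and 1.49 without. UGT73B5 (AT2G15480), a UDP-glycosyltransferase that attaches sugar to small molecules in stress and xenobiotic responses, followed with 584, 388 and 483 after H2O2, against 1.16, 1.98 and 3.37 without. The treated and untreated arrays of both lay far apart, and each untreated signal was below 8. The neighbouring gene UGT73B4 (AT2G15490), of the same family, gave 154, 71.7 and 120.5 after H2O2, against 1.18, 3.21 and 3.40 without. Cross-hybridisation between these related genes was not tested. AT1G26380, a berberine bridge enzyme-like oxidase that acts on indolic defence compounds, gave 303, 181 and 265 after H2O2, against 0.577, 1.65 and 1.33 without. CCR2 (AT1G80820), a cinnamoyl-CoA reductase of the monolignol pathway, was dimmer, with 71.7, 52.3 and 64.1 after H2O2, against 2.81, 3.69 and 2.28 without. The named detoxification and redox genes among the switched-on set were these 4, and none had an untreated signal above 4.

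Small heat shock proteins, which hold unfolding proteins in a soluble state, were switched on as well. The cytosolic protein AT1G53540 had signals of 443, 351 and 399 after H2O2, against 4.09, 12.5 and 14.5 without. The mitochondrial protein AT5G51440 had 232, 202 and 226 after H2O2, against 3.95, 10.8 and 17.8 without. The peroxisomal protein AT5G37670 had 153, 157 and 141 after H2O2, against 11.4, 12.1 and 14.9 without. The groups were far apart for all 3, whose products reside in 3 different compartments. AT3G14200, a DnaJ-type co-chaperone, was the remaining folding gene of the set, with 55.2, 52.4 and 51.5 after H2O2, against 15.4, 3.12 and 7.43 without.

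Besides these genes of detoxification and folding, the 27 named switched-on genes held 7 of metabolism, methylation and transport, 3 of defence, 2 of signalling, 2 of transcription and 5 with no role given here. AT1G72900, which carries the TIR domain of plant immune receptors, gave 221, 167 and 176 after H2O2, against 8.05, 7.10 and 8.40 without. AT1G72920, a TIR domain gene of a nearby locus number, gave 45.7, 58.9 and 46.6 after H2O2, against 15.4, 12.7 and 16.3 without, and was just above the median of its arrays. AT2G22880, a VQ motif protein that can bind WRKY factors, gave 111, 132 and 157 after H2O2, against 1.46, 2.10 and 1.61 without. All 3 had separate groups, as the definition of switched on requires. AT4G15975, a RING finger protein, gave 131, 169.8 and 130.4 after H2O2, against 2.39, 18.6 and 11.8 without. The methyltransferase AT4G22530 gave 152, 131 and 157 after H2O2, against 3.43, 3.90 and 3.71 without. The untreated arrays of AT4G22530 lay within 1 unit of signal of each other, while those of AT4G15975 differed more.

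Other switched-on genes included AT1G07160, a protein phosphatase of the PP2C type, AT1G22810, an AP2/ERF factor, AT4G36010, a thaumatin, BGLU28, a beta-glucosidase, AT3G25610, a phospholipid-transporting ATPase, AT2G41380, a second methyltransferase, and AT5G52750, a heavy metal-associated protein. Their mean signals after H2O2 ran from 56.8 for AT3G25610 to 83.5 for AT1G22810, and without treatment from 1.32 for AT2G41380 to 13.6 for AT4G36010. In the Zat12 line, which took no part in the choice, 46 of the 52 were above the median on all 3 H2O2 arrays, and 35 of them also met the low side on every untreated array with a value. The same shares over all probe sets were not computed.

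The single switched-off probe set, 249934_at, has no gene name here. Its signals were 6.01, 17.2 and 17.2 after H2O2, against 62.3, 51.0 and 57.7 without treatment. The number switched off was 3 without treated replicate 2, 5 without treated replicate 3, 2 without untreated replicate 2 and 3 without untreated replicate 3, and it was 0 and 12 with the low side at the 20th and the 40th percentile.

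Among named nuclear genes outside the switched-on set, the largest rise was that of AT4G01870, a protein related to the bacterial TolB family. Its signals were 3675, 2111 and 2317 with H2O2, against 95.1, 83.5 and 85.8 without, a log2 change of 4.85 (SE 0.17, limma adjusted p = 3.15e-12). STZ (AT1G27730), a C2H2 zinc finger repressor also called ZAT10, had 1239, 1309 and 1192 with H2O2, against 42.9, 33.1 and 92.8 without, a change of 4.53 (SE 0.26, limma adjusted p = 5.29e-10). The 3 treated arrays of STZ were close to each other, whereas untreated replicate 3 was more than 2 times each of the other untreated arrays. AT2G36220 gave 352, 322 and 256 with H2O2, against 3.68, 17.0 and 36.6 without. Its untreated arrays lay widely apart, with replicates 1 and 2 below the 30th percentile of the array.

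**Figure D2:**
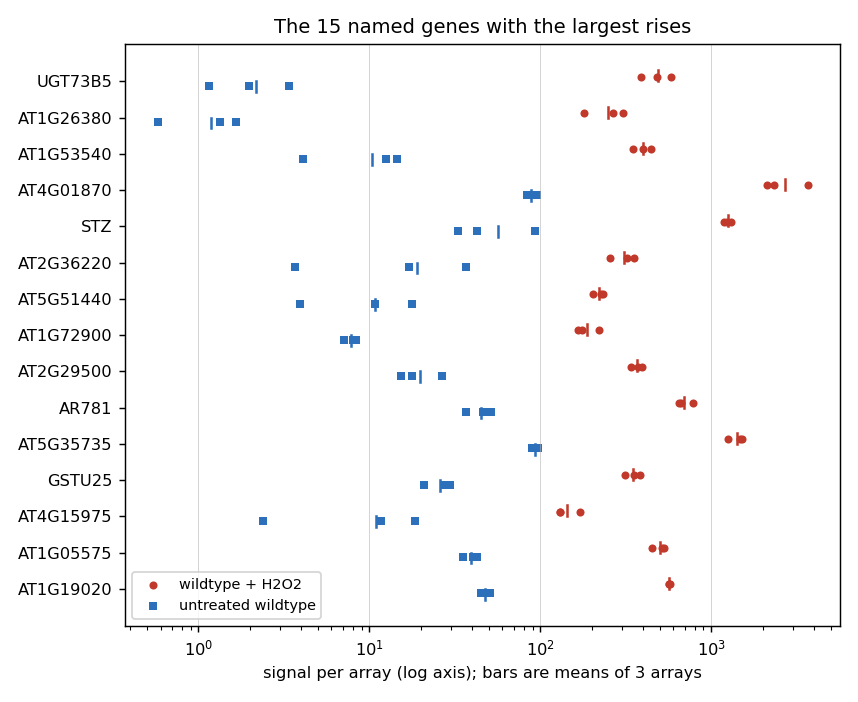
MAS5 signal per array (log axis) of the 15 named nuclear genes with the largest log2 rises, sorted from the largest at the top; circles are the 3 arrays of wildtype seedlings given H2O2 and squares the 3 untreated arrays, and short bars are their means. The genes were chosen among those whose groups did not overlap, and UGT73B5 and AT1G26380 have untreated signals below 4.

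Named nuclear genes with an untreated mean above 100 could be ranked apart from the floor. The largest rise there was that of AT1G76600, with 1908, 2049 and 1795 with H2O2, against 180.5, 185 and 148 without, a log2 change of 3.47 (SE 0.13, limma adjusted p = 2.05e-12). AT3G16530, a legume-type lectin of the pathogen response, had 2729, 2499 and 2573 with H2O2, against 249.8, 379 and 217 without, a change of 3.23 (SE 0.16). Treated arrays of both genes were more than 6 times any untreated array. AT2G36950, a heavy metal-associated protein, rose by 3.19, the berberine bridge enzyme-like oxidase AT4G20830 by 2.86, and the methyltransferase AT1G55450 by 2.72. The hypoxia-responsive HIG1-type protein AT5G27760 rose by 2.53, AT1G50740 by 2.41 and the C2 domain protein AT4G34150 by 2.40. SUFE2, which activates the cysteine desulfurase of plastid iron-sulfur cluster assembly, and AER, an alkenal reductase that removes reactive carbonyls, belonged to the same ranking with 2.77 and 2.66.

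The 87 named nuclear genes that rose at least 4-fold were grouped by what their products are known to do, after their values were seen. Roles were not given to all tested genes, so counts by role have no share over all genes beside them. Protein folding held 11 of them, with a median log2 rise of 3.26 and a range of 2.09 to 5.01. Detoxification and redox held 11, with a median of 2.77 and a range of 2.05 to 6.56. Signalling and protein turnover held 12, with a median of 2.46, metabolism, methylation and transport 12, with 2.70, defence proteins 6, with 2.53, and transcription 5, with 2.91. Cell wall was represented by 1 gene, XTH18, and no role is given here for 29. At the threshold, AT2G39400 lay just inside at 2.01 (a hydrolase) and PUB23 just outside at 1.98.

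Of the genes of protein folding, the small heat shock proteins had been listed by locus. Of 16 listed, 8 had a named probe set and 7 were tested, of which 6 rose and 0 fell, with a median log2 change of 3.30, beside -0.07 over all tested probe sets. Here and for each list and family below, the counts stand beside 9.59% risen and 12.4% fallen over all tested probe sets. AT2G29500 had 391, 338 and 373 with H2O2, against 15.4, 17.8 and 26.5 without, a change of 4.05 (SE 0.21, limma adjusted p = 1.15e-10). AT1G54050 had 484, 576 and 631 with H2O2, against 56.3, 60.1 and 47.1 without, a change of 3.30 (SE 0.14). ATHSP22.0 (AT4G10250), of the endomembrane system, rose by 2.09 (SE 0.23). The exception was AT4G21870, the brightest of the 7 without treatment, at 563 ± 39.6 with H2O2 and 686 ± 118 without (SD, n = 3 each), a change of -0.27 that was not called (limma adjusted p = 0.161). AT1G52560 was below the filter, at 30.1 with H2O2 and 6.48 without.

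Co-chaperones and folding helpers moved in part, and no Hsp70 or Hsp90 itself was among those tested. Of 19 chaperones and co-chaperones listed, 7 were tested, 4 rose and 0 fell, with a median log2 change of 1.67. AT5G48570, an FKBP-type prolyl isomerase, had 214, 228 and 214 with H2O2, against 28.1, 10.8 and 26.1 without, a change of 3.25 (SE 0.24, limma adjusted p = 1.09e-08). Fes1A, a nucleotide exchange factor for Hsp70, rose by 2.73 (SE 0.14), the DnaJ-type co-chaperone AT2G20560 by 2.29 (SE 0.17) and Hop3, which joins Hsp70 and Hsp90, by 1.67 (SE 0.17). Groups did not overlap for these 4. AT4G28480 (0.38), AT1G56300 (0.31) and BOB1 (0.05) were not called (limma adjusted p = 0.0949, 0.154 and 0.865). SGT1A, an Hsp90 co-chaperone of immune receptors outside the list, had 454, 466 and 423 with H2O2, against 92.4, 74.8 and 82.0 without, a change of 2.39 (SE 0.12). In the endoplasmic reticulum, BZIP60 and BZIP28, which are membrane-bound factors of the unfolded protein response, rose by 1.00 (SE 0.13) and 0.89 (SE 0.12). BZIP17, another such factor, was not called (0.24, limma adjusted p = 0.429). The co-chaperone ATERDJ3B fell by 0.40 on the log2 scale (SE 0.12, limma adjusted p = 0.0241). The call of ATERDJ3B ended with the 25S covariate (adjusted p = 0.0926) and without treated replicate 1 or untreated replicate 1 or 3 (adjusted p = 0.126, 0.0904 and 0.0749).

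Detoxification genes moved unevenly within their families. Of 30 tested UDP-glycosyltransferases 6 rose and 1 fell, with a median of 0.13, and of 8 tau-class glutathione transferases, which attach glutathione to reactive molecules, 1 rose and 2 fell, with a median of -0.04. GSTU25 had 382, 314 and 351 with H2O2, against 21.0, 27.2 and 29.5 without, a change of 3.61 (SE 0.16, limma adjusted p = 1.32e-11). GSTU26, the neighbouring locus number, had 134, 174 and 172 with H2O2, against 236, 247 and 248 without, a change of -0.61 (SE 0.13, limma adjusted p = 0.00267). The treated arrays thus lay above the untreated ones for GSTU25 and below them for GSTU26. GSTU22 also fell, at -0.69 (SE 0.21), and neither drop was called with the 25S covariate (adjusted p = 0.169 for GSTU26 and 0.214 for GSTU22). The call of GSTU22 also ended without treated replicate 1 or 2 or untreated replicate 1 (adjusted p = 0.0752, 0.0962 and 0.160). UGT73B4 was below the filter, and after UGT73B5 the tested glycosyltransferases with the largest rises were UGT87A2 at 1.72, UGT73B1 at 1.65 and UGT71C5 at 1.11. The rises of UGT74B1 and UGT85A2 were not called with the 25S covariate (adjusted p = 0.0663 and 0.598). The call of UGT85A2 also ended for 4 of the 6 wildtype arrays left out 1 at a time (adjusted p = 0.0752 to 0.106). UGT78D1, which glycosylates flavonols, fell: it had 67.5, 73.2 and 59.6 with H2O2, against 160.4, 147 and 162 without, a change of -1.19 (SE 0.17, limma adjusted p = 6.66e-05). None of 8 tested cytochrome P450 enzymes was called in either direction.

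Further redox genes rose outside these families. AT5G35735, a cytochrome b561 protein, had 1508, 1463 and 1259 with H2O2, against 89.8, 96.7 and 92.9 without, a change of 3.87 (SE 0.11, limma adjusted p = 1.75e-13). APS3, the ATP sulfurylase that starts sulfate assimilation, rose by 2.59 (SE 0.14), the flavin monooxygenase FMO by 2.40 (SE 0.11), the MATE-type efflux carrier AT3G23550 by 2.48 (SE 0.42) and the aldo-keto reductase AT1G60730 by 2.04 (SE 0.31). These genes were picked for rises of at least 4-fold, whereas the antioxidant enzymes form a list with no limit on the size of change. Of 42 antioxidant enzymes listed, 8 were tested and 1 rose, the monodehydroascorbate reductase ATMDAR2, which had 882, 768 and 745 with H2O2, against 379, 456 and 434 without, a change of 0.91 (SE 0.12, limma adjusted p = 1.6e-05). The chloroplast peroxiredoxin AT3G11630 averaged 3876 ± 172 with H2O2 and 3406 ± 166 without (SD, n = 3 each) and was not called (limma adjusted p = 0.187). The stromal and thylakoid ascorbate peroxidases SAPX and TAPX (0.27 and -0.05), the glutathione reductases GR and GR1 (-0.06 and -0.14), the peroxiredoxin PRXIIF (0.03) and the sulfiredoxin SRX (-0.02) were not called either. Of 4 tested mitochondrial stress genes 1 rose, the alternative NADH dehydrogenase NDB2, by 0.56 (SE 0.17, limma adjusted p = 0.0233), a call lost with the 25S covariate (adjusted p = 0.134) and without treated replicate 1 or 2 or untreated replicate 1 (adjusted p = 0.0785, 0.0542 and 0.103).

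Several transcription factors of the stress response rose, as did calcium and ubiquitin components. WRKY6 had 295, 269 and 247 with H2O2, against 25.1, 36.5 and 40.4 without, a change of 2.91 (SE 0.17, limma adjusted p = 7.11e-10). Of 6 tested WRKY factors 3 rose, WRKY22 by 1.07 and WRKY53 by 1.01 besides, and 1 fell, ZAP1 (WRKY1), at -0.53 (SE 0.17, limma adjusted p = 0.0363). Of 12 tested bZIP factors 3 rose, BZIP53 by 1.00 besides BZIP60 and BZIP28, and BZIP61 fell at -0.62. The drop of ZAP1 was not called with the 25S covariate (adjusted p = 0.161) or without treated replicate 1 or 3 or untreated replicate 1 or 3 (adjusted p = 0.0701 to 0.168), nor that of BZIP61 without treated replicate 1 or untreated replicate 3 (adjusted p = 0.0545 and 0.0737). AT2G33710, an AP2/ERF factor, rose by 2.32 (SE 0.31) and AT3G56880, a VQ motif protein, by 2.11 (SE 0.10). MYC4, a bHLH factor of jasmonate signalling, was the factor among the drops of at least 2-fold. It had 20.3, 18.1 and 12.0 with H2O2, against 44.5, 37.0 and 46.0 without, a change of -1.22 (SE 0.24, limma adjusted p = 0.00164).

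CML38, a calmodulin-like calcium sensor of RNA granules, had 104, 137 and 131 with H2O2, against 19.6, 12.1 and 23.5 without, a change of 2.60 (SE 0.26, limma adjusted p = 6.27e-07). CML42, of the same family, had 373, 374 and 366 with H2O2, against 109.7, 113 and 119 without, a change of 1.68 (SE 0.12). These were the risen members of 5 tested calmodulin-like sensors, of which 0 fell. The EF-hand proteins AT5G39670 and AT4G27280 rose by 2.47 (SE 0.18) and 2.19 (SE 0.17), and AT5G66650, of the calcium uniporter type, by 2.46 (SE 0.14). The leucine-rich repeat receptor kinase AT5G25930 rose by 2.44 (SE 0.14) and AT3G10930, which encodes a secreted peptide of the IDA-like family, by 2.77 (SE 0.35). PUB22, PUB23 and PUB24, U-box ubiquitin ligases that dampen immune signalling, rose among 7 tested members of their family. PUB23 had 202, 168 and 147 with H2O2, against 36.6, 38.7 and 48.8 without, a change of 1.98 (SE 0.18), PUB24 rose by 1.52 (SE 0.17) and PUB22 by 0.62 (SE 0.13), the last not called with the 25S covariate (adjusted p = 0.165).

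Defence proteins besides the lectin included AT1G72940, a TIR domain protein, which had 179, 186 and 180.0 with H2O2, against 38.5, 37.2 and 38.5 without, a change of 2.17 (SE 0.12). AT1G33600, a leucine-rich repeat protein, had 899.9, 774 and 733 with H2O2, against 142, 153 and 154 without, a change of 2.39 (SE 0.10). Both genes had groups that did not overlap. In primary metabolism and transport, the lysophosphatidic acid acyltransferase AT4G24160 rose by 3.40 (SE 0.11), the fructokinase AT5G51830 by 3.38 (SE 0.25) and the organic cation transporter OCT5 by 2.09 (SE 0.14).

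Some risen genes lay side by side. Of the 317 risen named genes that had a tested neighbour directly before or after them in the annotation, 64 (20.2%) had a risen neighbour, where 379 of all 3634 such genes (10.4%) did. For rises of at least 2-fold the shares were 10.8% of 130 risen genes and 4.51% of all, and for drops 16.3% of 424 fallen genes and 13.2% of all. Adjacent pairs that both rose at least 2-fold included AER with AT5G16980 (2.66 and 1.91), AT1G33600 with AT1G33590 (2.39 and 1.65), the acetyltransferase AT2G32030 with AT2G32020 (2.68 and 1.21), and AT2G39650 with the immune signalling kinase BIK1 (2.27 and 1.35). Neighbouring genes can be duplicates of each other, and cross-hybridisation was not tested.

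Drops were smaller than rises, and the genes were grouped by role in the same way, after their values were seen. These counts by role likewise have no share over all tested genes beside them. Of the 54 named nuclear genes that fell at least 2-fold, 10 encode cell wall proteins and peroxidases (median log2 change -1.27), 6 signalling and turnover proteins (-1.12), 4 detoxification and redox proteins (-1.15), 4 enzymes and carriers of metabolism (-1.15), 3 defence proteins (-1.27), 1 a folding enzyme and 1 a transcription factor. No role is given here for 25. At the threshold, AT3G24240 lay just inside at -1.002 and AT3G01190 just outside at -0.997. The call of AT3G54250, a mevalonate diphosphate decarboxylase whose groups overlapped, ended without treated replicate 1 or untreated replicate 1 or 3 (adjusted p = 0.134, 0.0723 and 0.112). With the 25S covariate 16 of the 54 drops were not called, and 1 of the 87 rises.

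AT4G26010 had the largest drop of a named gene and belongs to the class III peroxidases, secreted enzymes that make and use H2O2 in the wall. Its signals were 42.7, 90.8 and 86.2 with H2O2, against 349, 243 and 284 without, a change of -2.01 (SE 0.27, limma adjusted p = 2.64e-05). The class III peroxidase AT1G30870 had 54.0, 66.4 and 64.2 with H2O2, against 192, 135 and 153 without, a change of -1.33 (SE 0.20). AT5G17820, of the same class, had 98.9, 103 and 129.8 with H2O2, against 269.9, 243 and 297 without, a change of -1.27 (SE 0.14). All 3 peroxidases were picked for drops of at least 2-fold, and they also fell in Zat12 seedlings, by 3.08, 1.89 and 1.81 on the log2 scale. Of the class III peroxidases found by name, which leave out these 3, 2 were tested. Among them 0 rose and 1 fell, with a median log2 change of -0.29. Of 11 listed root markers 2 were tested, EXPA7 and EXPA18, and their summed signal was 107.8 to 114.8 with H2O2 and 123.9 to 151.8 without, with neither called (-0.48 and -0.22). The part of root tissue in these drops was not tested.

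Wall enzymes moved in both directions, and the first 3 given here were picked for drops of at least 2-fold. AT5G04960, a pectin methylesterase, had 16.1, 22.7 and 28.6 with H2O2, against 62.0, 60.2 and 56.4 without, a change of -1.32 (SE 0.20). AT4G24780, a pectate lyase, had 72.2, 94.8 and 77.6 with H2O2, against 207, 169 and 230.0 without, a change of -1.28 (SE 0.14). CSLA03, which makes mannans, had 47.5, 52.3 and 61.0 with H2O2, against 144, 139 and 111 without, a change of -1.25 (SE 0.15). None of these groups overlapped. Of 3 tested pectin enzymes found by name, which leave out AT5G04960 and AT4G24780, 1 rose and 1 fell. The risen one was the pectin methylesterase ATPMEPCRB, with 97.7, 134 and 113 with H2O2, against 55.3, 44.5 and 59.2 without, a change of 1.07 (SE 0.22, limma adjusted p = 0.00185), and the fallen one PMEAMT, at -0.62. Neither was called with the 25S covariate (adjusted p = 0.128 and 0.0514). The family of xyloglucan endotransglucosylases, which cut and rejoin xyloglucan, moved both ways: of 6 tested 1 rose and 2 fell. XTH18 had 266, 319 and 260.0 with H2O2, against 50.2, 40.1 and 33.7 without, a change of 2.69 (SE 0.16, limma adjusted p = 1.13e-09). XTH32 had 172, 158 and 171 with H2O2, against 315, 476 and 355 without, a change of -1.16 (SE 0.15, limma adjusted p = 1.2e-05), and XTH16 fell at -0.55, a call lost with the 25S covariate (adjusted p = 0.265). Of 14 tested expansins 0 rose and 1 fell, EXPB3 at -0.34, and of 7 cellulose synthase-type enzymes 0 rose and 2 fell, CSLA03 and CSLC5 (-0.55). Of 14 glycosyl hydrolases 0 rose and 5 fell, led by BGLU25 at -0.96 and the cellulase GH9C1 at -0.71. The fallen share of the expansins was thus below that of all tested probe sets, and the call of EXPB3 ended with the 25S covariate (adjusted p = 0.214) and without any 1 of the 6 wildtype arrays (adjusted p = 0.0555 to 0.123). That of GH9C1 ended with the 25S covariate (adjusted p = 0.0616) and without treated replicate 1 (adjusted p = 0.0520). Those of the remaining hydrolases BGLU44, GH9B7 and GH9B8 ended for 4, 5 and 5 of the 6 wildtype arrays left out 1 at a time (adjusted p = 0.0517 to 0.166).

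**Figure D3:**
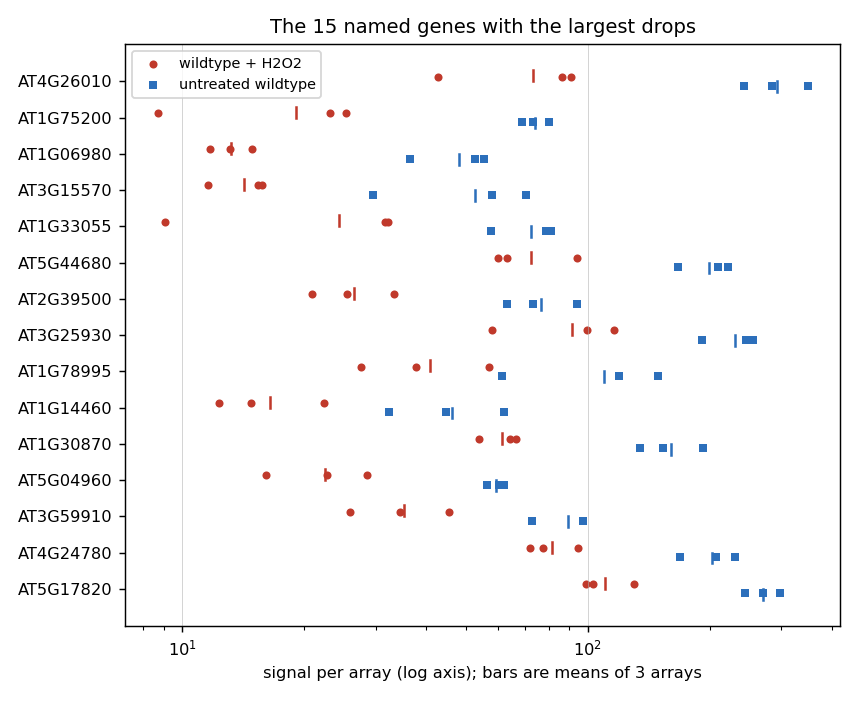
MAS5 signal per array (log axis) of the 15 named nuclear genes with the largest log2 drops, sorted from the largest at the top; circles are the 3 arrays of wildtype seedlings given H2O2 and squares the 3 untreated arrays, and short bars are their means. The genes were chosen among those whose groups did not overlap, and the largest drop is that of AT4G26010, at -2.01.

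Other large drops were of genes with few known functions or of varied ones. AT1G75200, a flavodoxin-like protein, had 23.1, 8.69 and 25.3 with H2O2, against 69.0, 80.2 and 73.2 without, a change of -1.91 (SE 0.26, limma adjusted p = 2.45e-05). AT3G15570, an NPH3-type protein, had 15.7, 11.6 and 15.4 with H2O2, against 58.1, 29.5 and 70.3 without, a change of -1.62 (SE 0.30). AT3G25930, of the universal stress protein family, had 58.0, 116 and 99.7 with H2O2, against 245, 255 and 191 without, a change of -1.35 (SE 0.20). The groups stood apart in each case, with the wider spread among treated arrays of AT1G75200 and AT3G25930. Without a role given here, AT1G06980 fell by 1.64 on the log2 scale, AT1G33055 by 1.61, AT5G44680 by 1.44, AT2G39500 by 1.44, AT1G78995 by 1.33, AT1G14460 by 1.33 and AT3G59910 by 1.29. AT1G06980, AT1G33055, AT2G39500 and AT1G78995 were not called with the 25S covariate (adjusted p = 0.109, 0.097, 0.0674 and 0.408).

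Signalling genes among the drops included the leucine-rich repeat receptor kinases AT3G28040 (-1.16), AT3G56370 (-1.07) and AT3G24240 (-1.002), and RALFL24, a secreted peptide of the RALF type (-1.13). The nitrate transporter AT3G21670 fell at -1.17, and AT1G12010, an ACC oxidase of ethylene synthesis, at -1.10. RALFL24 and AT3G21670 were not called with the 25S covariate (adjusted p = 0.234 and 0.122). MSRB6, a methionine sulfoxide reductase, had 321, 394 and 414 with H2O2, against 835, 1032 and 614 without, a change of -1.11 (SE 0.16, limma adjusted p = 6.94e-05). Its signal was thus lower on every treated array. Of 6 tested sugar transporters 0 rose and 4 fell, all of the SWEET family, led by SWEET17 at -0.85 and SWEET1 at -0.55. Among 3 jacalin lectins 2 fell, JAL33 at -0.57 and JAL22 at -0.52. The 4 SWEET drops and that of JAL22 were not called with the 25S covariate (adjusted p between 0.0656 and 0.705). Calls of SWEET11 and SWEET16 each ended for 4 of the 6 wildtype arrays left out 1 at a time (adjusted p = 0.0511 to 0.113 and 0.0611 to 0.151). Of 7 histones 0 rose and 2 fell, HTB11 and HTB4, and of 7 late embryogenesis and dehydrin proteins 0 rose and 2 fell, COR47 and AT1G54410, all by less than 0.5 on the log2 scale. None of these 4 was called with the 25S covariate (adjusted p = 0.189 to 0.614), nor HTB4 without treated replicate 1 (adjusted p = 0.0783) or HTB11 without treated replicate 1 or 2 or untreated replicate 1 or 3 (adjusted p = 0.0528 to 0.108). Of 6 tested autophagy genes 0 rose and 1 fell, APG8A at -0.42, a call that ended with the 25S covariate (adjusted p = 0.61) and without treated replicate 1 or 2 or untreated replicate 1 or 2 (adjusted p = 0.0540 to 0.121).

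Nuclear photosynthesis genes and the reference genes did not pass the test in either direction. Of 42 photosynthesis genes listed 7 were tested, with a median of 0.05, from -0.21 for PSAN to 0.35 for LHCB4.2, and their summed signal was 26491 to 29695 with H2O2 and 24295 to 27759 without. Of 9 reference genes listed 3 were tested, with a median of -0.19, beside -0.07 over all tested probe sets. Their summed signal was 306.5, 289.7 and 323.3 with H2O2, against 390.8, 356.2 and 331.9 without, and was thus lower on every treated array.

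Transcripts encoded in the plastid genome differed from these. Of 56 tested, 45 rose and 0 fell, with a median log2 change of 1.21. The array's control for 25S ribosomal RNA moved with them: its signal was 295.2, 274.1 and 125.7 on the treated arrays, against 55.9, 33.0 and 125.3 on the untreated ones. The median signal of the plastid-encoded probe sets was 683, 532.5 and 518 with H2O2, against 182, 153 and 255 without. In both measures untreated replicate 3, with the highest 25S signal of the untreated arrays, was nearest to the treated arrays. Treated replicate 3 and untreated replicate 3, only 1 array of each group, had 25S signals of 125.7 and 125.3 and plastid medians of 518 and 255. With the 25S covariate the number called was 19, and the changes of rpl14 and rpl36, which were called risen at 1.32 and 0.65, were -0.07 and -0.02. The part of RNA composition in these rises was not tested.

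By complex the medians of the plastid genes ran from 0.75 for the RNA polymerase to 2.00 for photosystem I, with ranges that overlapped and no test of the difference. The 5 tested genes of photosystem I had a median of 2.00, the 3 of the cytochrome b6f complex 1.90 and the 5 of the ATP synthase 1.87, and all 13 rose. The 6 of the NADH dehydrogenase-like complex had a median of 0.99 with 4 risen, and the 14 of photosystem II one of 1.00 with 9 risen and a range of -0.11 to 3.01. The ribosomal proteins had a median of 1.17 in the small subunit (5 of 6 rose) and 0.78 in the large one (5 of 7 rose), and 2 of 3 subunits of the RNA polymerase rose. The psaA gene of the photosystem I core had 555, 378 and 291 with H2O2, against 13.7, 26.7 and 99.3 without, a change of 3.42 (SE 0.45, limma adjusted p = 1.79e-05). The psbC gene, for an inner antenna of photosystem II, had 902, 610.2 and 536 with H2O2, against 41.6, 56.5 and 212 without, a change of 3.01 (SE 0.39). Untreated replicate 3 was the highest untreated array of both genes. With the 25S covariate the changes of psaA and psbC were 2.24 and 1.85. The values below 0 were those of psbE, psbF, psbL and psbJ, which are known to form 1 operon for small subunits of photosystem II. The psbE gene had 391.7, 313 and 303 with H2O2, against 434, 313 and 287 without, a change of -0.03 (SE 0.15, limma adjusted p = 0.928). The groups overlapped in psbE, and the changes of psbF, psbL and psbJ were -0.03, -0.09 and -0.11. Of 4 tested mitochondrion-encoded probe sets 2 rose, ccb382 by 1.12 and cox1 by 0.70, the call of cox1 being lost with the 25S covariate (adjusted p = 0.0754) and with no filter (adjusted p = 0.0531).

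**Figure D4:**
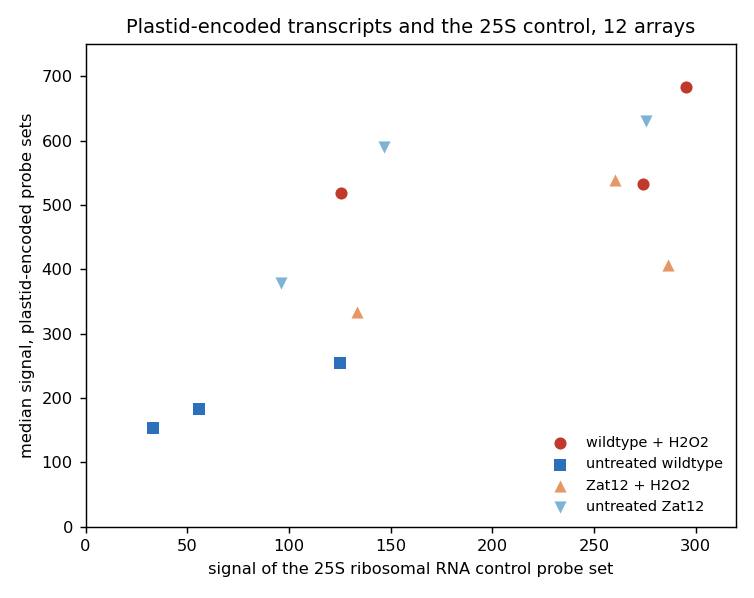
Median signal of the plastid-encoded probe sets (vertical) against the 25S ribosomal RNA control (horizontal), 1 point for each of the 12 arrays, both axes linear from 0. The 3 untreated wildtype arrays have the lowest plastid medians, 153 to 255, and 2 of them the lowest 25S signals.

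The Zat12 line gave a second measurement of the response. Its arrays entered the choice of these genes through the filter and the shared estimate of the spread, and in a fit of the 6 wildtype arrays alone all 87 risers and 53 of the 54 fallers were called. In Zat12 seedlings 1114 (8.16%) of the tested probe sets rose with H2O2 and 1244 (9.12%) fell. Of the 87 genes that rose at least 4-fold in wildtype, all 87 rose in Zat12, with a median log2 change of 2.74 in Zat12 and 2.56 in wildtype, and for 69 the changes were within 1.5-fold of each other. Of the 54 that fell at least 2-fold in wildtype, 38 fell in Zat12, with a median of -0.83 in Zat12 and -1.17 in wildtype. AT1G33055, for example, changed by 0.03 in Zat12 and -1.61 in wildtype, and AT2G39500 by -0.17 in Zat12 and -1.44 in wildtype, although the difference between genotypes was not called for either (limma adjusted p = 0.278 and 0.292). The genes were chosen for a large change in wildtype, which by itself makes a smaller change in Zat12 more likely.

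The difference of the H2O2 responses, Zat12 minus wildtype, was called for 15 probe sets (0.110%), and for none of the named nuclear genes by limma, of which 507 had an unadjusted p below 0.05. The count of 15 was 48 without untreated wildtype replicate 3, and 7 without treated wildtype replicate 1 or without untreated wildtype replicate 2. Without treated wildtype replicate 2 it was 9, and with the 25S covariate 8. It was 3 with no filter, without the mean-variance trend or without plastid-encoded probe sets. Of the 87 risers 20 had an unadjusted p below 0.05 and of the 54 fallers 12. The nearest to the threshold of the genes named above was Hop3, which rose by 2.91 in Zat12 and 1.67 in wildtype (limma adjusted p of the difference = 0.0589). Of the 15, 12 were plastid-encoded, 2 matched several genes and 1 had no gene name here. The largest was psaA, which changed by -0.84 in Zat12 and 3.42 in wildtype (limma adjusted p of the difference = 0.0071). Its mean signal was 46.6 on untreated wildtype arrays and 408 on treated ones, and 457 on untreated and 250 on treated Zat12 arrays.

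**Figure D5:**
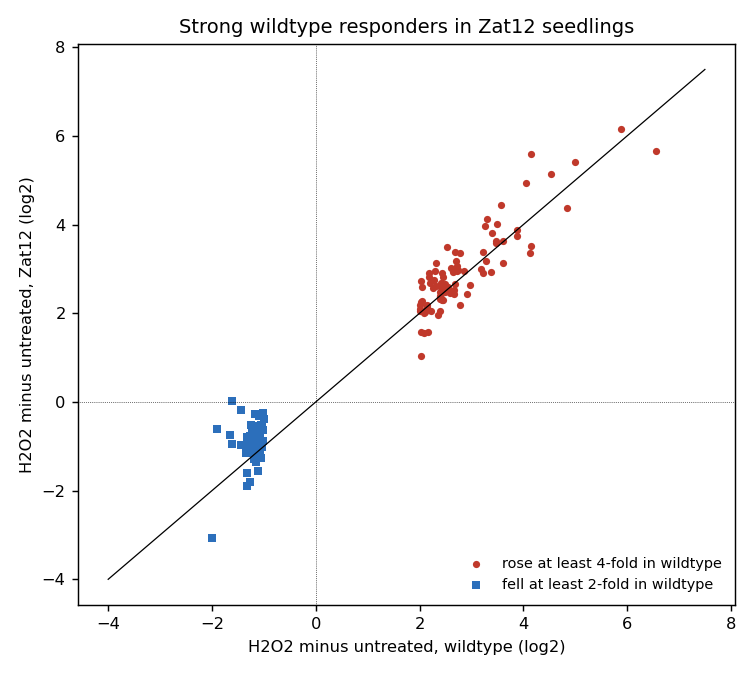
Log2 change with H2O2 in Zat12 seedlings (vertical) against that in wildtype seedlings (horizontal) for the 87 named nuclear genes that rose at least 4-fold in wildtype (circles) and the 54 that fell at least 2-fold (squares); the solid line marks equal changes and the dotted lines 0. All circles lie above 0 in Zat12, with a median of 2.74, and 38 of the 54 squares were called fallen there.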

How the data were processed

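The deposited values were intensities, linear MAS5 signals for each array, per the submitters' processing notes. Not given in the sources used here were detection calls, build and MAS5 version. The authors scaled the arrays, as their equal trimmed mean signal of 100.0 shows, which hides any shift common to most transcripts. The 6 wildtype arrays had no empty cells, and 6408 cells of Zat12 replicate 2 were empty and left so. Of 22746 probe sets, 13513 were paired with 1 gene, 503 with several and 8730 with none in the platform annotation used here; names were updated from a RefSeq table of TAIR10.1. Genes that the annotation does not name may be on the array. No genome was used, so promoter motifs were not searched.

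The signals were turned into log2(signal + 3), 3 being the 10th percentile of all values. Probe sets with a mean above the 40th percentile were kept. limma 3.58.1 in R 4.3.3 fitted the 4 groups in 1 linear model, allowing for a mean-variance trend, and adjusted p-values by Benjamini-Hochberg over the 13647. The number of arrays limits the precision. Python 3.11.15, pandas 2.3.3 and matplotlib 3.10.9 did the rest. In simulated arrays 200 of 13647 probe sets were given a change. The fit recovered 41.8% of 1.5-fold, 83.6% of 2-fold and 90.9% of 4-fold changes, and 5.88% of its 153 calls were false. The wildtype comparison itself had 2998 calls, so these shares may not hold for it.

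The rule for names took, among called genes with 1 gene per probe set and groups that did not overlap, the 15 largest rises and drops, the 10 largest rises from an untreated mean above 100, the 10 brightest switched-on genes, and from each list up to 4 called members with the largest change and any of the opposite direction. Other names were chosen after their values were seen, to describe the groups by role. The members and lists were chosen with earlier results of these data known. Roles are textbook knowledge. Alternatives covered the offset, filter, scaling, trend, arrays, covariate and thresholds.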

Additional observations from a re-analysis of the deposited data

Results flagged for a closer look

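The H2O2 response differed between Zat12 and wildtype seedlings for 15 probe sets, by limma's test of the difference itself. In each the response was lower in Zat12 than in wildtype. For 12 plastid-encoded genes the difference, Zat12 minus wildtype on the log2 scale, was -4.27 for psaA, -3.42 for psbC, -3.28 for psbT, -2.85 for petL, -2.83 for psaB, -2.66 for psbB, -2.55 for atpF, -2.53 for atpH, -2.51 for atpA, -2.39 for psbA, -1.86 for rps2 and -1.34 for psaI. Probe sets 244940_at and 244992_s_at, which match several genes, differed by -3.39 and -3.33. The median plastid-encoded signal was 182, 153 and 255 on untreated wildtype arrays, against 591, 630 and 379 on untreated Zat12 arrays. The smaller responses in Zat12 thus stood on higher untreated plastid levels. Beside these values stand the 25S control signals, which were 261, 286 and 133 on treated and 147, 275 and 96.3 on untreated Zat12 arrays, and 295.2, 274.1 and 125.7 on treated and 55.9, 33.0 and 125.3 on untreated wildtype arrays. Their part in the differences was not tested.

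Probe set 247655_at, without a gene name here, was the remaining one, with a difference of -1.41. Its signals were 204, 286 and 267 on treated wildtype arrays, against 49.5, 52.0 and 46.2 on untreated ones, and its log2 change with H2O2 was 0.87 in Zat12 and 2.28 in wildtype. In Zat12 it averaged 1027 ± 49.4 with H2O2 and 560.5 ± 26.4 without (SD, n = 3 each), so that the smaller log2 change there stood on a higher untreated level. Zat12 itself has no named probe set here, and whether this unnamed one measures it was not tested.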

How the results depend on the processing

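Of the 87 named genes that rose at least 4-fold, 86 kept direction and call under each alternative that tested them, the exception being 1 with the 25S covariate, and of the 54 that fell at least 2-fold 36 did. Neither set held a gene that changed direction. With the 25S covariate the plastid genes rpl14 and rpl36, called risen, came to -0.07 and -0.02, and the uncalled SAPX, SRX, PSAN and AT4G21870 changed sign, to -0.12, 0.17, 0.15 and 0.05. Among genes named in the text, calls that ended with no filter included GSTU22, ZAP1, NDB2, AT3G54250, EXPB3, BGLU44, GH9B8, SWEET16, rpl14 and cox1 (adjusted p = 0.0531 to 0.0867). Those that ended with the 6 wildtype arrays alone included APG8A, AT3G54250, ATERDJ3B, BGLU44, EXPB3, GH9B7, GH9B8, JAL22, SWEET11, UGT85A2 and ZAP1 (adjusted p = 0.0532 to 0.0949). The counts moved as follows. With the 25S covariate 860 probe sets rose, 802 fell, 19 plastid-encoded ones rose and 8 differed between genotypes. With no filter 212 fell at least 2-fold and 3 differed between genotypes, and with a stricter filter 63 fell at least 2-fold. Without the trend, and without plastid-encoded probe sets, 3 differed between genotypes. At an adjusted p below 0.01, 989 rose, 772 fell and 6 differed between genotypes. With the low side at the 20th percentile 27 were switched on and 0 off, and at the 40th percentile 104 and 12. Leaving out 1 array in turn gave 1084 to 1310 risen, 1074 to 1610 fallen, 575 to 632 risen and 106 to 143 fallen at least 2-fold, 39 to 46 plastid-encoded risen, 7 to 48 differing between genotypes, 54 to 62 switched on and 1 to 5 switched off. With the replicate number as a block 1336 rose and 1774 fell. Deviations of same-numbered arrays had correlations of -0.06 to 0.105. With 3 arrays a group these cannot tell whether the numbers mark shared cultures or days. The cause of these shifts was not tested. The promoter search was not run. Signals near the floor carry no order, and 3 arrays a group limit what small changes can be seen.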
